A study of Mus musculus with 18 samples.

Results

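The dual-specificity MAP kinase phosphatases examined here are the genes Dusp1, Dusp2, Dusp4, Dusp5, Dusp6 and Dusp10, taken by symbol from the GENCODE M21 annotation. All 6 matched a row of the deposited gene counts, out of 55536 Ensembl genes, and all 6 passed the filter on low counts in every comparison. The 18 libraries hold RNA of mouse CD8+ T cells, taken from lymph nodes and spleen, and every one carries the genotype label OT-I, the transgene of a T cell receptor specific for SIINFEKL, a peptide of ovalbumin. They fall into 2 libraries labelled Tra2b knockout, 8 labelled control from cells with a scrambled sequence, and 8 labelled naive at day 0. The knockout and control cells were both taken at day 4 after SIINFEKL given with antibodies to OX40 and 4-1BB, which are costimulatory receptors of T cells, so those groups share the antigen and the antibodies. The labels give neither the age of the mice nor the way in which Tra2b was disrupted. They also do not say whether each library is a separate animal, and the p-values therefore reflect library-to-library spread that may be technical.

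MAP kinases (ERK, JNK and p38) are switched on when a kinase adds phosphate to a threonine and a tyrosine in their activation loop. The dual-specificity phosphatases remove both phosphates and so switch the kinase off. In T cells the receptor signals through Ras, Raf and MEK to ERK, and several of these phosphatases are themselves transcribed in response, which makes them brakes that the pathway applies to itself. Dusp1, Dusp2, Dusp4 and Dusp5 encode phosphatases of the nucleus, Dusp6 encodes a cytoplasmic phosphatase selective for ERK, and Dusp10 encodes one that prefers JNK and p38.

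Total counts were 79197461 and 93495846 in the knockout libraries, 73735681 to 93972513 in control libraries and 68249844 to 86932452 in naive ones. Tra2b, which encodes a splicing regulator, stood at 361 and 370 CPM, the count relative to the TMM-scaled library total, in the knockout libraries, at 338 to 526 CPM in control libraries and at 248 to 352 CPM in naive ones. The difference of knockout from control did not pass (log2 fold change -0.34, SE 0.13, adjusted p = 0.0899). The way of disruption is not given, and a gene count can include reads of a disrupted transcript, so it cannot serve as a check. The name knockout follows the label. Trbv12-1, a segment of the V beta 5 family that the OT-I receptor uses, held 99.4 and 99.7% of the Trbv counts in the knockout libraries and 99.6 to 99.8% in control libraries, but 5.95 to 12.4% in naive ones, which goes against their OT-I label. The summed CPM of 6 CD8+ T cell markers was 2900 and 3370 in knockout, 2560 to 3180 in control and 4620 to 5610 in naive libraries. The naive libraries also held more RNA of some other cells, with 8 B cell markers summing to 29.1 and 32.8 CPM in knockout, 11.8 to 26.6 CPM in control and 70.8 to 141 CPM in naive libraries. The sum of 5 natural killer markers was 4.57 and 6.51 CPM in knockout, 3.36 to 12.3 CPM in control and 36.6 to 70 CPM in naive libraries. Other lists did not go this way, with 3 gamma-delta T cell markers summing to 107 and 119 CPM in knockout, 84.6 to 151 CPM in control and 16.9 to 31 CPM in naive libraries, and 3 CD4+ T cell markers to 2.24 and 2.73 CPM in knockout, 1.39 to 9.92 CPM in control and 2.71 to 4.82 CPM in naive libraries. Any difference from the naive libraries given below therefore cannot be told apart from their other source and make-up. In bulk libraries fewer cells of a type and less RNA per cell cannot be told apart either.

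Promoter windows from RefSeq (GRCm38.p6) were found for 5 of the 6 genes, Dusp1, Dusp2, Dusp5, Dusp6 and Dusp10. Each runs from 250 bases before the start to 50 bases after it. The 3 windows below are shown because the levels of Dusp1, Dusp2 and Dusp5 were positively correlated between libraries of the same group. Dusp4, for which no window was found, was also positively correlated with Dusp1 (0.68), Dusp5 (0.5) and Dusp2 (0.29). The Dusp1 window lies at chr17:26508423-26508722 on the minus strand, that of Dusp2 at chr2:127335909-127336208 on the plus strand and that of Dusp5 at chr19:53528895-53529194 on the plus strand. Capitals mark matches to a full cyclic AMP response element (TGACGTCA) and an E-box (CACGTG) in Dusp1, an E-box in Dusp2 and a pair of adjoining CArG boxes, the element bound by serum response factor, in Dusp5.
Dusp1 promoter: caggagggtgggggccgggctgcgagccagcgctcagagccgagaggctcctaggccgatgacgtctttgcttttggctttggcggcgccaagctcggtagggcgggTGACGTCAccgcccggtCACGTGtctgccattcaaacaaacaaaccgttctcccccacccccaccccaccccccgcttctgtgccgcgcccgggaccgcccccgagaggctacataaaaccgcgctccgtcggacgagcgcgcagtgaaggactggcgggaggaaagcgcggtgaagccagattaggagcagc
Dusp2 promoter: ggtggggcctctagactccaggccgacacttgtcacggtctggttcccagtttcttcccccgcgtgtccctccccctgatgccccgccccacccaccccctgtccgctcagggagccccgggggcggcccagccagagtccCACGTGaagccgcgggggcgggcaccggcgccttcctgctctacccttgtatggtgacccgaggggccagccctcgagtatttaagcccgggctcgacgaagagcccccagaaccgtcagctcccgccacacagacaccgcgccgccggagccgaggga
Dusp5 promoter: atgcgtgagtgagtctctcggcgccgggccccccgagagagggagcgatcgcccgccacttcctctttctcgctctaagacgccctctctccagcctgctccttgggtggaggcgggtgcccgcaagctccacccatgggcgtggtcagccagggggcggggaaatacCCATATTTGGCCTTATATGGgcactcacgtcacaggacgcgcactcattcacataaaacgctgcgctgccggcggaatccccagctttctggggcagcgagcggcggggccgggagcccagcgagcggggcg
Counted with the start as 0, the element in Dusp1 begins at base -143 and its E-box at -126, the E-box of Dusp2 begins at -109, and the CArG boxes of Dusp5 begin at -82 and -72 without overlapping. Both strands of all 32851 windows of this length were searched. The full cyclic AMP response element was in 1.79% of them, the E-box in 7.15% and the CArG box in 1.63%. The shorter core TGACG, which lies inside the full element, was in 20.8% of all windows and in those of Dusp1, Dusp2 and Dusp5, and the SP1 box GGGCGGG was in 25.6% and in those of Dusp1, Dusp2, Dusp5 and Dusp10. Matches to AP-1 (TGACTCA, 5.2% of all windows), ETS (CCGGAAG, 8.86%), EGR (GCGTGGGCG, 0.612%), NFAT (TGGAAA, 21.4%), FOXO (TGTTTAC, 3.65%) and the TATA box (TATAAA, 13.6%) were in none of the 5 windows. The windows of Dusp1, Dusp2 and Dusp5 were 67, 70.7 and 66.7% G and C, those of Dusp6 and Dusp10 57.3 and 61%. Matches and their absence describe these letters only.

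All 6 genes were transcribed in every library. Dusp4 (ENSMUSG00000031530.6, chromosome 8, 34807297 to 34819894 on the plus strand, GRCm38) encodes a nuclear phosphatase also known as MKP-2. It had 27.9 and 46.8 CPM in the knockout libraries, 15.7 to 34.5 CPM with a median of 23.2 in the controls, and 4.19 to 13 CPM with a median of 10.6 in the naive libraries. Knockout and control overlapped, and both lay above all 8 naive libraries. Dusp6 (ENSMUSG00000019960.8, chromosome 10, 99263231 to 99267489, plus strand), the ERK phosphatase MKP-3, had 37.3 and 38.6 CPM in the knockout libraries, 16.4 to 35.2 CPM with a median of 21.7 in the controls, and 35 to 66.6 CPM with a median of 51.2 in the naive libraries. Both knockout libraries lay above all 8 controls and inside the range of the naive libraries. Dusp10 (ENSMUSG00000039384.8, chromosome 1, 184013302 to 184075636, plus strand), or MKP-5, had 32.6 and 38.9 CPM in the knockout libraries, 23.6 to 32.8 CPM with a median of 30.3 in the controls, and 39.3 to 62.3 CPM with a median of 51.9 in the naive libraries. Here the naive libraries lay above all libraries of both other groups, and 1 knockout library lay inside the control range.

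**Figure D1:**
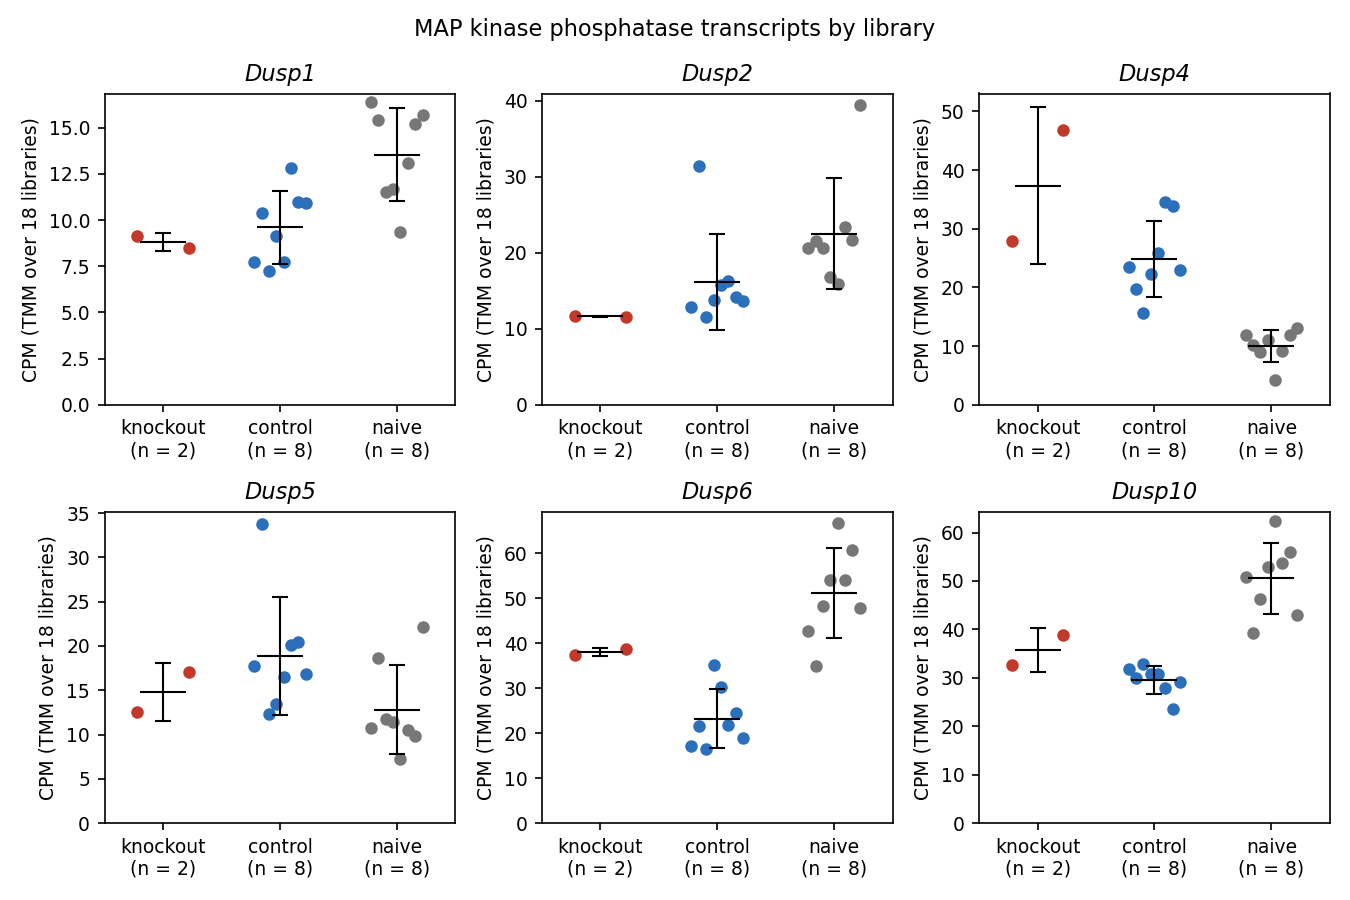
Each panel plots 1 gene, with the level in CPM (scaled by TMM over the 18 libraries) on a linear axis from 0 and the groups along the bottom; points are libraries, the long bar is the mean and the whiskers the SD. Dusp4 lies between 4.19 and 13 CPM in the naive libraries, below every knockout and control library, while control 2 (31.4 and 33.8 CPM) and naive 8 (39.5 and 22.2 CPM) stand at the top of their groups for Dusp2 and Dusp5.

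Dusp1 (ENSMUSG00000024190.7, chromosome 17, 26505590 to 26562128, minus strand), the immediate-early phosphatase MKP-1 that acts on p38, JNK and ERK, had 9.14 and 8.48 CPM in the knockout libraries, 7.22 to 12.8 CPM with a median of 9.77 in the controls, and 9.38 to 16.4 CPM with a median of 14.2 in the naive libraries. Dusp2 (ENSMUSG00000027368.6, chromosome 2, 127336159 to 127338376, plus strand), known as PAC-1 and first described in activated lymphocytes, had 11.7 and 11.6 CPM in the knockout libraries, 11.5 to 31.4 CPM with a median of 14 in the controls, and 15.9 to 39.5 CPM with a median of 21.1 in the naive libraries. For both genes the knockout libraries sat inside the control range and below all naive libraries. Dusp5 (ENSMUSG00000034765.6, chromosome 19, 53529109 to 53542431, plus strand), a nuclear phosphatase selective for ERK, had 12.5 and 17.1 CPM in the knockout libraries, 12.3 to 33.8 CPM with a median of 17.3 in the controls, and 7.29 to 22.2 CPM with a median of 11.1 in the naive libraries. All groups overlapped for Dusp5. Some annotated spans overlap other genes, with an antisense transcript across the start of Dusp5, 1700056E22Rik on the opposite strand inside Dusp10, and Ergic1 on the opposite strand at the distal start of Dusp1. Whether counting used strand is not given in the sources used here, so such reads cannot be told apart.

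Levels were compared between the genes per length, as TPM, each count divided by transcript length and scaled to the library, computed from the deposited transcript counts. In the knockout libraries the mean TPM was 23.9 for Dusp4, 23.8 for Dusp6, 22.6 for Dusp10, 12.9 for Dusp2, 10.5 for Dusp5 and 7.61 for Dusp1. In the controls the order was Dusp10 at 17.4, Dusp2 at 16.7, Dusp4 at 14.8, Dusp6 at 13.9, Dusp5 at 12.5 and Dusp1 at 8.08 TPM. In the naive libraries it was Dusp10 at 33.3, Dusp6 at 32.9, Dusp2 at 25.5, Dusp1 at 12.2, Dusp5 at 9.18 and Dusp4 at 6.48 TPM. Most neighbours in these orders were not separated: ranges overlapped between Dusp4 and Dusp6 and between Dusp6 and Dusp10 in the knockout libraries, between all neighbours in the controls, and between all neighbours but Dusp2 and Dusp1 in the naive libraries. Dusp1 was the lowest of the 6 in both knockout and all 8 control libraries, and Dusp4 the lowest in 7 of 8 naive libraries. The CPM of Dusp4 divided by that of Dusp6 was 0.748 and 1.21 in the knockout libraries, 0.63 to 1.59 in control libraries and 0.063 to 0.288 in naive ones. Summed over the 6 genes the level was 88.6 and 114 TPM in knockout, 65.6 to 108 TPM in control and 104 to 146 TPM in naive libraries, overlapping between neighbouring groups.

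Disruption of Tra2b was addressed by comparing knockout with control at the same day. None of the 6 phosphatases passed in edgeR's quasi-likelihood test (adjusted p under 0.05, Benjamini-Hochberg over 18651 genes). Of all genes tested, 7.62% were called higher and 7.24% lower, 2772 genes in all, against 651 without knockout 2. At an unadjusted p under 0.05 there were 3 members, Dusp4, Dusp6 and Dusp10, all higher in knockout, and no member was lower at that level. Of the 18651 genes tested, 5485 had an unadjusted p under 0.05. The largest difference was that of Dusp6, at 38 ± 0.915 CPM in knockout (SD, n = 2) and 23.2 ± 6.57 CPM in control libraries (SD, n = 8), a log2 fold change of 0.71 (SE 0.24, 95% interval 0.25 to 1.18, adjusted p = 0.0627). It was the only one of the 6 whose knockout and control libraries did not overlap, against 23.8% of all genes. Dusp4 averaged 37.3 ± 13.3 CPM in knockout and 24.8 ± 6.5 CPM in control libraries (log2 fold change 0.60, SE 0.25, adjusted p = 0.14), with both knockout libraries above the control mean. Dusp10 averaged 35.8 ± 4.44 CPM in knockout and 29.6 ± 2.86 CPM in control libraries (0.28, SE 0.12, adjusted p = 0.128). The 95% intervals of the other 3 included 0, from -0.53 to 0.29 for Dusp1, from -1.1 to 0.15 for Dusp2 and from -0.96 to 0.26 for Dusp5. Intervals this wide do not show that these genes are alike in the groups. The median log2 fold change was 0.08 over the 6 genes and -0.01 over all genes.

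The call on Dusp6 lies near the threshold. DESeq2 called it (log2 fold change 0.73, adjusted p = 0.019), and so did edgeR without control 4 (0.83, adjusted p = 0.0174) or control 5 (0.78, adjusted p = 0.0465), whereas limma voom did not (adjusted p = 0.0985). Without knockout 2 the log2 fold change of Dusp4 was 0.19, and without knockout 1 it was 0.91. Markers of red blood cells moved with this comparison, 3 of 4 passing as higher, and they summed to 78.7 and 7.99 CPM in the knockout libraries, against 0.215 to 10.8 CPM in the controls. Dusp6 stood at 37.3 CPM in the knockout library with 78.7 CPM of these markers and at 38.6 CPM in the one with 7.99 CPM. None of the tested B cell, dendritic, macrophage, neutrophil, natural killer, CD4+ or gamma-delta T cell markers passed, but sums of some of these lists were higher in knockout. The 6 dendritic markers summed to 39.6 and 51.1 CPM in knockout and 19.1 to 37.1 CPM in control libraries, without overlap, as the B cell sums above. The median log2 fold change was 0.78 over the 5 tested macrophage markers, 1.81 over the 4 tested neutrophil markers, 0.44 over the 5 dendritic ones and -0.27 over the 6 B cell ones. The part of these cells in the values of the phosphatases was not tested. The libraries also differed by base composition, the 10% of genes richest in G and C minus the 10% poorest lying at -0.53 and -0.52 (log2) in knockout and at -0.30 to -0.13 in control libraries. By exon length, the 10% longest genes minus the 10% shortest lay at -0.35 and 0.21 in the knockout libraries, which were thus apart. That difference was -0.68 to -0.32 in control and -0.11 to 0.2 in naive libraries, without overlap between those groups. With a fitted trend on exon length and GC content removed, the log2 fold change was 0.74 for Dusp6 (adjusted p = 0.0585) and 0.75 for Dusp4 (adjusted p = 0.0778).

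**Figure D2:**
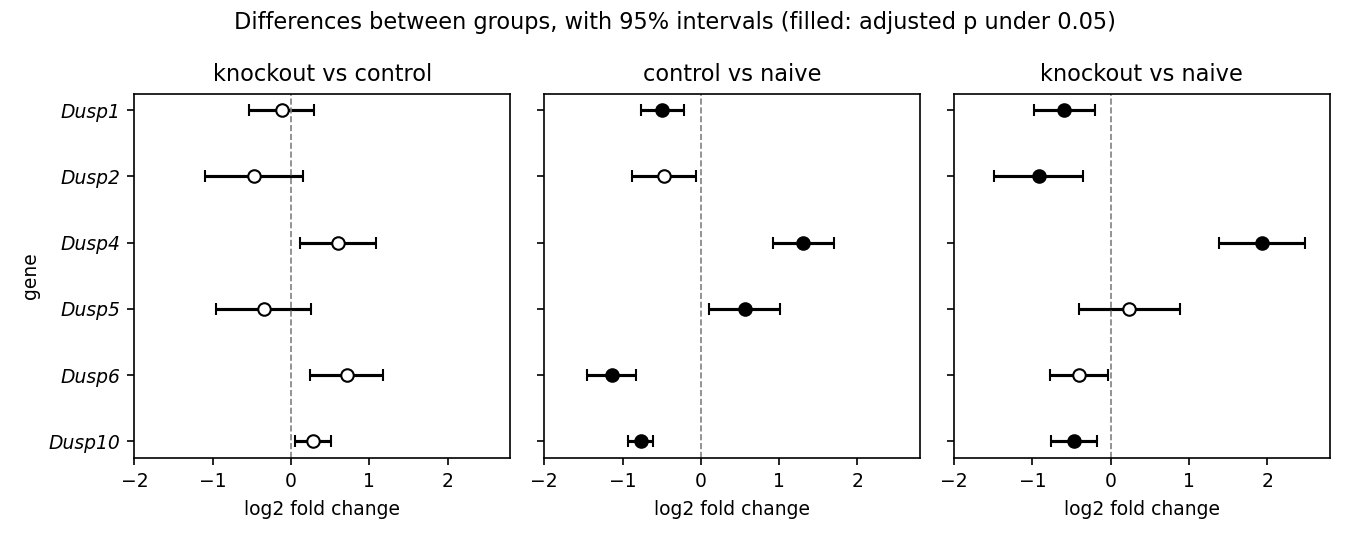
For each of the 6 genes (rows) the point gives the log2 fold change and the line its approximate 95% interval. Panels are knockout against control, control against naive and knockout against naive, and filled points had an adjusted p under 0.05. Against control no knockout point is filled, with Dusp6 at 0.71, while Dusp4 stands at 1.31 and 1.93 against naive.

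Control cells at day 4 after antigen were set against naive cells to see how the genes differ between these states. Dusp4 and Dusp5 passed as higher in control and Dusp1, Dusp6 and Dusp10 as lower. Among all 17078 genes tested, 32.5% were called higher and 39% lower, so 5 of 6 called is near the share over all genes. Dusp4 averaged 24.8 ± 6.5 CPM in control and 10 ± 2.72 CPM in naive libraries, 2.47-fold higher (log2 fold change 1.31, SE 0.20, adjusted p = 9.88e-06). Dusp6 averaged 23.2 ± 6.57 CPM in control and 51.2 ± 9.98 CPM in naive libraries (-1.14, SE 0.16, adjusted p = 3.15e-06), and Dusp10 29.6 ± 2.86 CPM in control and 50.5 ± 7.41 CPM in naive libraries (-0.77, SE 0.08, adjusted p = 2.05e-07; SD, n = 8 each). The JNK and p38 phosphatase and the cytoplasmic ERK phosphatase were thus lower in control, while the nuclear phosphatases went both ways, with Dusp4 and Dusp5 higher and Dusp1 lower. Control and naive libraries did not overlap for Dusp4 and Dusp10, against 42.3% of all genes, and did for the other 4. These 3 calls held, and that of Dusp1, under every alternative in which the gene was tested, with log2 fold changes of 1.19 to 1.4 for Dusp4, -1.25 to -1.04 for Dusp6, -0.89 to -0.7 for Dusp10 and -0.59 to -0.4 for Dusp1.

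Dusp1 averaged 9.61 ± 1.97 CPM in control and 13.5 ± 2.51 CPM in naive libraries (log2 fold change -0.49, SE 0.14, adjusted p = 0.00413). The calls on Dusp2 and Dusp5 turned on single libraries. Dusp5 averaged 18.9 ± 6.67 CPM in control and 12.8 ± 4.99 CPM in naive libraries (0.56, SE 0.23, adjusted p = 0.0371). It lost its call in 9 of 25 alternatives, among them without control 2 (0.41, adjusted p = 0.079) and without naive 1, 3, 4, 5, 6 or 7 (0.47 to 0.56, adjusted p = 0.0508 to 0.0698). Dusp2 averaged 16.2 ± 6.34 CPM in control and 22.5 ± 7.35 CPM in naive libraries and did not pass (-0.47, SE 0.21, adjusted p = 0.05004). It passed in 11 of 26 alternatives, among them without control 2 (-0.66, adjusted p = 0.00143) and with DESeq2 (-0.46, adjusted p = 0.0324), and not without naive 8 (-0.29, adjusted p = 0.162). All 6 CD8+ T cell markers, all 6 tested B cell markers, all 5 natural killer markers and all 5 tested dendritic markers fell in the same comparison, as did 4 of 5 macrophage and all 4 tested neutrophil markers. Of the gamma-delta T cell markers Trdc (log2 fold change 2.77) and Sox13 (4.51) rose and Tcrg-C1 (-2.36) fell, and of the CD4+ T cell markers Cd40lg (2.85) rose and Foxp3 (-3.09) fell. Their part in the differences of the phosphatases was not tested.

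Knockout and naive libraries were compared in the same way. The comparison shares its naive libraries with the one above and its knockout libraries with the first. Dusp4 averaged 37.3 ± 13.3 CPM in knockout and 10 ± 2.72 CPM in naive libraries, 3.8-fold higher (log2 fold change 1.93, SE 0.28, adjusted p = 0.000146), and it was the only member to rise. Dusp1 (-0.59, SE 0.20, adjusted p = 0.0327), Dusp2 (-0.92, SE 0.29, adjusted p = 0.0199) and Dusp10 (-0.47, SE 0.15, adjusted p = 0.0255) fell. Among 19776 genes tested, 21.1% were called higher and 23.6% lower. Dusp6 (-0.40, SE 0.19, adjusted p = 0.109) and Dusp5 (0.24, SE 0.33, adjusted p = 0.599) did not pass. Knockout and naive libraries did not overlap for Dusp1, Dusp2, Dusp4 and Dusp10, against 46.4% of all genes. The 3 falls were lost without knockout 1 (adjusted p = 0.0919, 0.0966 and 0.201 for Dusp1, Dusp2 and Dusp10) and without knockout 2 (adjusted p = 0.195, 0.12 and 0.0526). No alternative turned their sign, with log2 fold changes of -0.85 to -0.37 for Dusp1, -1.04 to -0.71 for Dusp2 and -0.58 to -0.33 for Dusp10. Removing the trend on exon length and GC content also ended the call on Dusp1 (-0.37, adjusted p = 0.131) and Dusp10 (-0.36, adjusted p = 0.0818).

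The rest of the phosphatase family gave few calls between knockout and control, where 7.62% of all genes were called higher and 7.24% lower. Of the other typical MAP kinase phosphatases, Dusp7, Dusp9 and Dusp16 were tested and none passed, while Dusp8 was below the filter in every comparison. Dusp16, which acts on JNK, had 1.9 and 2.69 CPM in knockout and 0.701 to 1.71 CPM in control libraries, without overlap (log2 fold change 0.92, SE 0.29, adjusted p = 0.0538), and it passed with DESeq2 (adjusted p = 0.0283). Of the 10 tested of 12 atypical dual-specificity phosphatases, most of which are not established MAP kinase phosphatases, 1 rose and 1 fell. Dusp11, an RNA phosphatase, averaged 123 ± 36.5 CPM in knockout and 80.2 ± 4.55 CPM in control libraries (0.62, SE 0.11, adjusted p = 0.00426). Dusp12 averaged 15.6 ± 0.771 CPM in knockout and 21.6 ± 2.27 CPM in control libraries (-0.46, SE 0.13, adjusted p = 0.0293). The median over the 10 was 0.02. Of 7 protein tyrosine phosphatases and related regulators of receptor signalling, Ptpn22 rose (0.36, adjusted p = 0.0142) and Ptpn2 fell (-0.41, adjusted p = 0.00632), with a median of -0.14.

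Upstream of the phosphatases, 4 of 18 genes of the Ras-ERK cascade rose in knockout against control and none fell, with a median log2 fold change of 0.14. The shares over all genes were 7.62% higher and 7.24% lower. Rasgrp1, a diacylglycerol-responsive activator of Ras in T cells, had 96.7 and 149 CPM in knockout and 56.6 to 84.7 CPM in control libraries (0.75, SE 0.15, adjusted p = 0.00682). Rasa2, which lowers Ras activity, had 66.8 and 76.7 CPM in knockout and 43.7 to 56.2 CPM in control libraries (0.56, SE 0.09, adjusted p = 0.00263), and Araf, a Raf kinase, 132 and 145 CPM in knockout and 102 to 121 CPM in control libraries (0.33, SE 0.08, adjusted p = 0.0175). With the trend on exon length and GC content removed, Rasa2 (0.20, adjusted p = 0.181) and Araf (0.24, adjusted p = 0.103) no longer passed. Of 16 tested genes of the JNK and p38 cascades, Map3k1 rose (0.41, adjusted p = 0.0175) and none fell, the median being 0.14.

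Genes that respond to ERK moved in both directions between knockout and control. Of 10, 2 rose and 2 fell, with a median of -0.15, where 7.62% of all genes rose and 7.24% fell. Etv4, an ETS factor induced by ERK, had 3.15 and 4.67 CPM in knockout and 0.989 to 2.09 CPM in control libraries (log2 fold change 1.3, SE 0.26, adjusted p = 0.00687). Ier3 had 3.74 and 4.22 CPM in knockout and 5.87 to 10.7 CPM in control libraries (-0.99, SE 0.25, adjusted p = 0.02), and Myc 79.4 and 86.6 CPM in knockout and 95 to 130 CPM in control libraries (-0.45, SE 0.12, adjusted p = 0.0239). Of 13 immediate-early genes Ier2 fell (-0.36, adjusted p = 0.0209) and none rose, with a median of 0.01, and Ier2 stood at -0.08 with the trend removed (adjusted p = 0.61). Spry1, a Sprouty inhibitor of Ras signalling, had 1.28 and 1.36 CPM in knockout and 2.19 to 9.74 CPM in control libraries (-2.05, SE 0.47, adjusted p = 0.0137), and the other 4 tested Sprouty and Spred genes did not pass. None of the calls on Spry1, Ier3, Myc and Ier2 held in limma voom (adjusted p = 0.0864, 0.0781, 0.0758 and 0.0521). Leaving out a knockout library ended many of the 13 calls named from these lists in knockout against control. Without knockout 2 all 13 were lost (adjusted p from 0.0586 to 0.244), and without knockout 1 those of Araf, Dusp12, Ier2, Ier3, Myc, Ptpn22 and Spry1 were lost (0.0562 to 0.161), none of them with a change of sign.

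**Figure D3:**
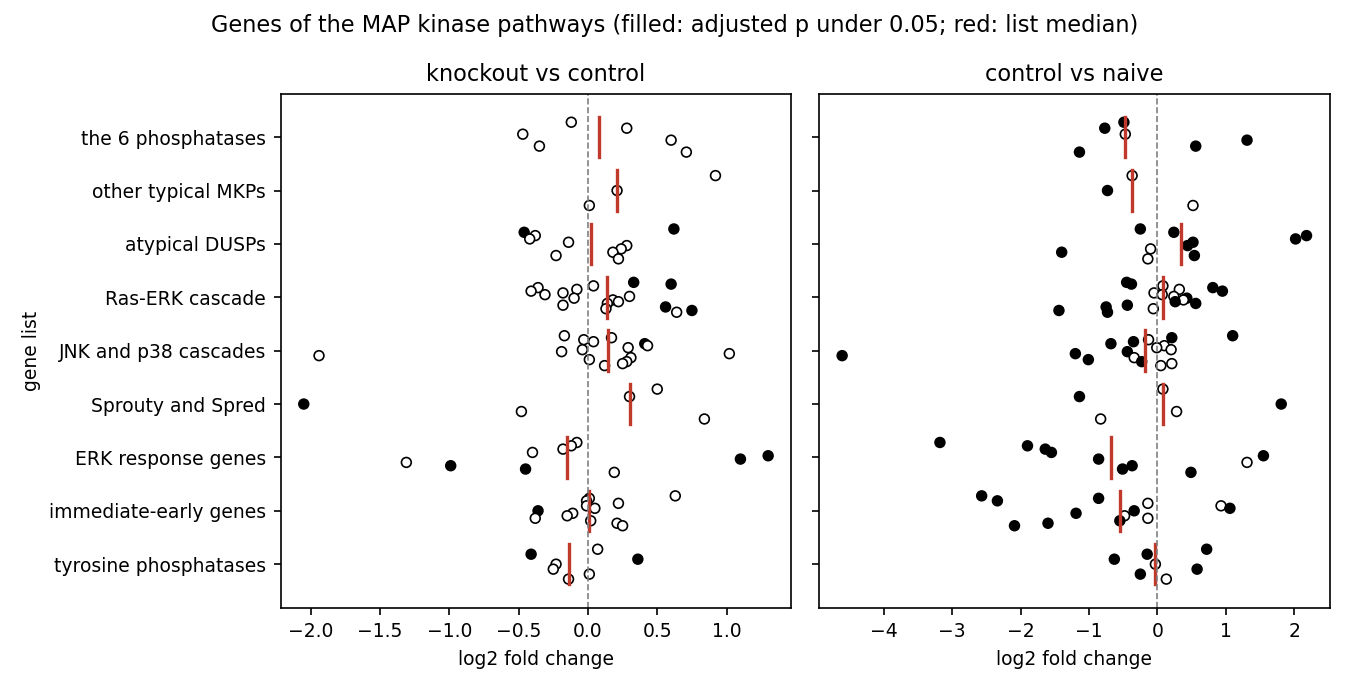
Each point is a gene of a list (rows), placed by its log2 fold change in knockout against control (left) and control against naive (right), on axes of different scale; filled points had an adjusted p under 0.05 and the red bar is the list's median. In the left panel the filled points are few and on both sides of 0, and in the right panel the ERK response genes have a median of -0.68 and the immediate-early genes one of -0.55.

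In control against naive, 7 of 10 ERK response genes fell and 2 rose, with a median log2 fold change of -0.68 against -0.08 over all genes. Over all 17078 genes tested, 39% fell and 32.5% rose, and the counts of the lists below stand beside these shares. Egr1, an early growth response factor, had 7.23 to 20.7 CPM in control and 41.9 to 79.6 CPM in naive libraries (-1.90, SE 0.18, adjusted p = 3.48e-08), Egr3 fell by 1.55 and Ccnd1 (cyclin D1) by 3.18 on the log2 scale. Of 13 immediate-early genes 8 fell and 1 rose (median -0.55). Zfp36, which destabilises cytokine messages, had 21.5 to 29.2 CPM in control and 85.1 to 127 CPM in naive libraries (-2.09, SE 0.08, adjusted p = 5.54e-13). Dusp1, itself an immediate-early gene, and Dusp6 fell in this comparison too. Of the Ras-ERK cascade 5 of 18 rose and 6 fell (median 0.08), with Rasgrp1 at -1.44. Of the JNK and p38 cascades 2 of 16 rose and 7 fell (median -0.18), with the p38 activator Map2k3 at 1.10 and the JNK gene Mapk8 at -1.01. Mapk13, a p38 kinase, had 0 counts in both knockout libraries, 0 to 0.319 CPM in control and 1.18 to 5.35 CPM in naive libraries.

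Among the other phosphatases Dusp7 fell in control against naive (-0.73, SE 0.11, adjusted p = 6.1e-06), the only one of 3 tested typical members outside the 6 to pass (median -0.37). The shares over all genes in this comparison were 32.5% higher and 39% lower. Of 10 atypical ones 6 rose and 2 fell (median 0.34). Dusp14, which in T cells is known to act on the adaptor TAB1, had 16.8 to 31.7 CPM in control and 2.18 to 8.73 CPM in naive libraries (2.18, SE 0.21, adjusted p = 4.13e-08), and Dusp28 had 4.52 to 5.56 CPM in control and 10.6 to 14.7 CPM in naive libraries (-1.40, SE 0.08, adjusted p = 7.3e-11). Of 5 tested Sprouty and Spred genes Spry1 rose (1.81) and Spred2 fell (-1.14), with a median of 0.08, and of 7 tyrosine phosphatase genes 2 rose and 3 fell (median -0.03). For knockout against naive the counts of higher and lower calls were 0 and 1 of 3 other typical phosphatases (median 0.55), 4 and 1 of 10 atypical ones (0.37), 4 and 2 of 18 Ras-ERK genes (0.19), 3 and 3 of 16 JNK and p38 genes (0.04), 0 and 1 of 6 Sprouty and Spred genes (-0.19), 2 and 6 of 10 ERK response genes (-1.14), 0 and 9 of 13 immediate-early genes (-0.67) and 2 and 1 of 7 tyrosine phosphatases (-0.21). Over all genes tested in knockout against naive, 21.1% were called higher and 23.6% lower, with a median of -0.08.

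Within groups, some of the 6 phosphatases went up and down together from library to library. After subtracting each group's mean, log2 CPM of Dusp2 and Dusp5 had a Pearson correlation of 0.81 over the 18 libraries. Control 2 was the highest control for both genes, at 31.4 CPM for Dusp2 and 33.8 CPM for Dusp5, and naive 8 the highest naive library for both, at 39.5 and 22.2 CPM. The other pairs above 0.4 were Dusp1 with Dusp4 (0.68), Dusp5 (0.55) and Dusp2 (0.49), and Dusp4 with Dusp5 (0.50). Dusp10 went the other way, at -0.63 with Dusp5, -0.60 with Dusp1 and -0.50 with Dusp4, and had 0.34 with Dusp6. Without control 2 and naive 8 the correlation of Dusp2 with Dusp5 was 0.51 over the remaining 16 libraries, and 0.40 with a fitted trend on exon length and GC content removed, so its size rests in large part on these 2 libraries. Without them Dusp1 with Dusp4 had 0.70, Dusp4 with Dusp5 0.71, Dusp2 with Dusp4 0.64 and Dusp5 with Dusp10 -0.75. These values describe libraries that share their depth, scaling and base composition. Within groups, Dusp5, Dusp2 and Dusp1 had correlations of 0.74, 0.71 and 0.59 with a library's difference between GC-rich and GC-poor genes, Dusp4 one of 0.32, Dusp6 one of -0.22 and Dusp10 one of -0.61. Without control 2 and naive 8 they were 0.57 for Dusp5, 0.54 for Dusp2, 0.57 for Dusp1, 0.28 for Dusp4, -0.23 for Dusp6 and -0.59 for Dusp10. Set against the exons of 7553 genes whose log2 CPM averaged 4 or more, a set that does not hold Dusp1 and Dusp5 themselves, the GC content of Dusp2, Dusp5, Dusp4 and Dusp1 came at the 89th, 88th, 85th and 68th percentile and that of Dusp10 and Dusp6 at the 49th and 47th. The part of base composition in the correlations between the phosphatases was not tested. Over all 18 libraries with the trend removed, the correlation of Dusp2 with Dusp5 was 0.78, that of Dusp1 with Dusp4 0.66 and that of Dusp5 with Dusp10 -0.58.

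**Figure D4:**
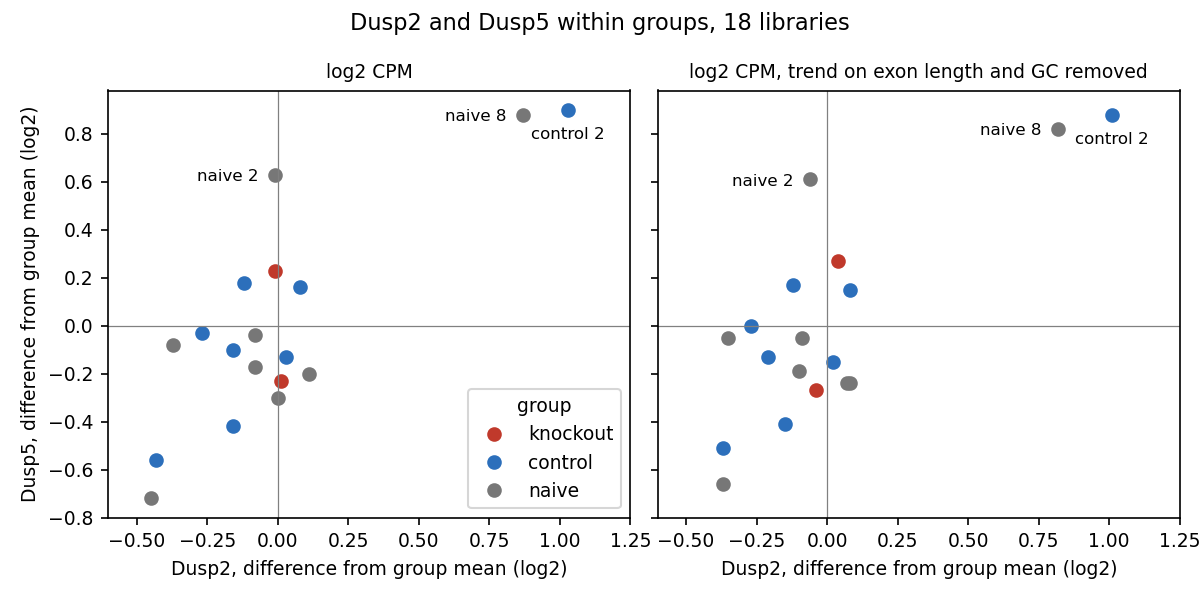
Each point is a library, placed by its difference from its group's mean in log2 CPM for Dusp2 (across) and Dusp5 (up), before (left) and after (right) a fitted trend on exon length and GC content was removed. Control 2 and naive 8 lie together at the upper right of both panels, and the correlations over the 18 libraries are 0.81 and 0.78, against 0.51 and 0.40 without these 2.

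The genes whose log2 CPM over the 18 libraries was most like that of each phosphatase, among protein-coding genes averaging a log2 CPM of 4 or more, were Rab2a (Pearson r = 0.92) and Irak1 (0.90) for Dusp1, Dtnb (0.91) and Ppp3cc (0.90) for Dusp2, and Cep76 (0.95) and Flvcr1 (0.94) for Dusp4. For Dusp5 they were Rac1 (0.96) and Ube2z (0.95), for Dusp6 Ift80 and Trib2 (0.97 each), and for Dusp10 Ist1 (0.97) and Ezh1 (0.96). After subtracting group means the most alike were D030056L22Rik (0.91) and H2afy (0.89) for Dusp1, Mindy2 (0.93) and Grk6 (0.92) for Dusp2, and Scaf11 (0.89) and Lpcat1 (0.87) for Dusp4. Within groups Dusp5 was closest to Gnas and Map7d1 (0.96 each), Dusp6 to Inpp4b and Ift80 (0.91 each) and Dusp10 to Srpk1 (0.89) and Cog5 (0.85). Ift80 was thus the only gene among the closest of any phosphatase both with and without the group means.

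Tra2b acts on splicing, so the annotated transcripts of the 6 genes were examined as well. Dusp4 and Dusp5 have a single annotated transcript. The coding transcripts Dusp2-201, Dusp6-201 and Dusp10-201 held 95.7 to 98.6%, 99.1 to 99.5% and 99.3 to 100% of their gene's counts in the knockout libraries, 96.6 to 99.6%, 96.1 to 99.7% and 99.4 to 100% in the controls, and 94.7 to 98.6%, 94.7 to 99.9% and 94.3 to 100% in the naive libraries. These 3 genes were thus counted almost wholly as 1 transcript in every library. Dusp1 was not. Its coding transcript Dusp1-202 held 86.7 and 75.8% of the counts in the knockout libraries, 72 to 94.5% with a median of 82% in the controls, and 30.9 to 87.4% with a median of 55.1% in the naive libraries. Dusp1-203, annotated as a retained intron from 26505591 to 26508474, held 9.69 and 21.8% in the knockout libraries, 1.19 to 18.6% with a median of 12.6% in the controls, and 4.59 to 52.1% with a median of 36% in the naive libraries. The share of the retained intron ran over a wider range in the naive libraries than in the other groups, and all groups overlapped.

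**Figure D5:**
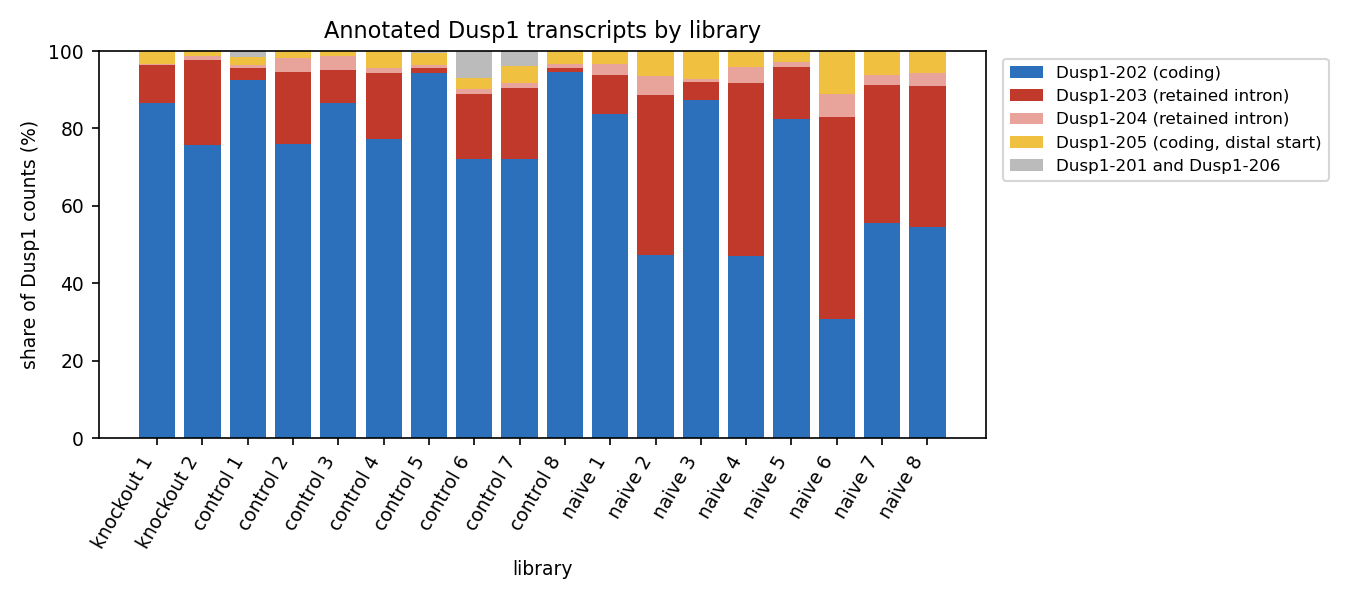
Stacked bars give the share of Dusp1 counts (percent, from 0 to 100) assigned to each annotated transcript in each of the 18 libraries. The retained-intron transcript Dusp1-203 takes 52.1% in naive 6 and 4.59% in naive 3, and 9.69 and 21.8% in the knockout libraries.

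No change in transcript usage passed for the members. In knockout against control the adjusted p was 1 for each of the 4 tested genes, Dusp1, Dusp2, Dusp6 and Dusp10, in a test that called 3.21% of 9653 genes. In control against naive it was 0.101 for Dusp1, 0.231 for Dusp2 and 0.508 for Dusp6, in a test that called 45% of 8581 genes. Limma's diffSplice called Dusp1 in control against naive (adjusted p = 0.00358), as did the test used here without naive 5 (adjusted p = 0.0441), so the usage of Dusp1 depends on the method and on 1 library. A gene that did not pass is not shown to be spliced alike.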

How the data were processed

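RNA from 18 libraries was extracted with a micro column kit and made into cDNA with an ultra-low-input polyA kit, per the labels' protocols. Deposited were the authors' estimated counts of genes and of transcripts, given as whole numbers, and all gene values are sums of transcript values. The submitters' processing notes name StringTie 2.1.0, STAR 2.7.1a, DESeq2 1.30.1, SAMtools 1.9 and R 4.0.5, and in them the builds mm39 and mm10 are named without a role. The identifiers match GENCODE M21, so coordinates are GRCm38. Rows with numeric identifiers (26248 of 81881, 0.0513 to 0.132% of the counts) name no gene and were left out, and 97 spike-in rows hold 0 counts. Of the columns, 0 were left over. Such estimates split reads between overlapping transcripts, so transcript shares are less certain than gene counts.

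Levels are CPM scaled by TMM over all 18 libraries. Groups were compared with edgeR 4.0.16 in R 4.3.3 (robust quasi-likelihood test, TMM and filterByExpr within each comparison, minimum count 10, prior count 2), adjusted by Benjamini-Hochberg over all genes and called under 0.05. Depth was 68249844 to 93972513 counts per library. SE is that of the log2 fold change and 95% intervals are 1.96 SE to either side. This normal quantile makes them approximate and narrower than the quasi-likelihood test would give. For Dusp6 in knockout against naive the interval of -0.77 to -0.03 excluded 0, at an unadjusted p of 0.0572 in that test. Transcript usage was tested with diffSpliceDGE after a likelihood-ratio fit and a Simes test per gene. That fit replaced a quasi-likelihood fit, which recovered few changes in simulated data, after the counts of both were known. The main gene test and the main usage test were tried on simulated data. No pair of libraries of a group agreed within sampling noise.

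Alternatives were DESeq2 1.42.0, limma 3.58.1 (voom with quality weights, diffSplice), RLE factors, library totals, other filters, 1 fit of all groups, a replicate block, a fitted trend on GC content and exon length taken out, and leaving out libraries. The quasi-likelihood usage fit and the correlations with the trend removed or without control 2 and naive 8 were added after seeing the data. The 6 genes, the pathway and marker lists and the tests were chosen with earlier results of these data known. From each list up to 3 tested genes with the smallest p in a comparison were to be named, and for each phosphatase the 2 genes with the highest correlation on each measure. A gene of these lists is counted in them but not reported here by name.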

Additional observations from a re-analysis of the deposited data

Results flagged for a closer look

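In the groups of 8, the highest or lowest library was tested for its distance from the other 7 in 84 combinations of gene and group, and 8 were flagged. Chance alone flags about 1 in 20 groups. Dusp2 had 31.4 CPM in control 2, where the other controls had 11.5 to 16.3 CPM, and 39.5 CPM in naive 8, where the other naive libraries had 15.9 to 23.4 CPM. Dusp5 had 33.8 CPM in control 2 against 12.3 to 20.4 CPM in the other controls. Dusp4 had 4.19 CPM in naive 5 against 9 to 13 CPM in the others. Outside the 6 genes, Dusp7 had 9.71 CPM in control 2 (others 5.87 to 7.34), Dusp9 1.66 CPM in naive 1 (others 0.318 to 0.861), Ptpn22 691 CPM in naive 5 (others 449 to 545) and Ptpn11 28.2 CPM in naive 5 (others 33.7 to 38.5). Control 2 thus stood out for Dusp2, Dusp5 and Dusp7, and naive 5 for Dusp4, Ptpn22 and Ptpn11.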

How the results depend on the processing

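No call on a member or list gene changed direction. For knockout against control, 1 member (Dusp6) was called higher with DESeq2, with a filter at a mean log2 CPM of 4 and with all 3 groups in one fit, against 0 here, and 0 to 1 when a library was left out, with 0 lower throughout. Leaving out a library gave 651 (without knockout 2) to 2858 genes called, against 2772, and the other settings 1855 (voom) to 3789 (DESeq2), apart from the replicate block below. For control against naive, members higher numbered 1 with library totals only and without controls 1 and 2 (Dusp4 alone, against 2) and 0 with the filter at a mean log2 CPM of 4, which drops Dusp4 and Dusp5 from the test. Leaving out a library gave 1 to 2 higher and 3 to 4 lower, and 11976 to 12243 genes. That filter gave 6061 genes called against 12213, and 4883 against 8837 for knockout against naive, where it also dropped Dusp4 from the test and so left 0 members higher. There, members lower numbered 1 with voom and 1 with the trend removed, against 3, and 0 (without either knockout library) to 4 (without naive 2), with 1 higher and 6766 to 8986 genes. Scaling by library totals moved the median log2 fold change of all genes for knockout against naive from -0.08 to -0.19, and removing the trend moved it to 0.06. The causes were not tested.

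Replicate numbers are not used as pairs, since same-numbered libraries had correlations of 0.0121 to 0.0595 (knockout and control) and -0.04 to 0.0495 (control and naive). The replicate block kept only libraries whose number was found in both groups. In comparisons with knockout it thus set 2 libraries against 2 and left out the other control or naive libraries. Its effect was not separated from that of using fewer libraries. With the block 0 genes were called for knockout against control (3297 at an unadjusted p under 0.05, with 1 residual degree of freedom). For knockout against naive 2542 were called, and Dusp10 was lost (adjusted p = 0.324). Genes with changed usage in knockout against control numbered 632 with the block, 882 with diffSplice, 164 with the quasi-likelihood fit and 300 to 438 when a library was left out, against 310, and in control against naive 752 with the quasi-likelihood fit and 3590 to 3894, against 3863. With 2 knockout libraries the precision is limited by their number, and in fits that leave out 1 of them the other is assumed to vary like the controls or naive libraries.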
